A study of Mus musculus with 24 samples.

Results

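The clustered histone genes named Hist1h in the mouse form the largest group of replication-dependent histone genes, and they were followed here through chromatin accessibility in 12 populations of blood cell differentiation. The members were all protein-coding genes of the GENCODE vM21 annotation (mouse genome mm10) whose symbol begins with Hist1h. This rule, which uses no measured value, gave 54 of 21938 protein-coding genes: 6 encode linker histone H1, 13 H2A, 15 H2B, 9 H3 and 11 H4. All 54 genes lie on chromosome 13, in 4 stretches of neighbouring genes.

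Replication-dependent histone genes supply the core histones H2A, H2B, H3 and H4, around which DNA is wrapped in nucleosomes, and the linker histone H1, which binds DNA at the nucleosome's edge. They are transcribed mainly in S phase, when new chromatin is assembled, and their mRNAs end in a stem-loop in place of a poly(A) tail. Many H2A and H2B genes stand head to head with a short shared promoter between them. The clustered genes gather with the coactivator NPAT at histone locus bodies in the nucleus. Histone gene transcription falls when cells leave the cell cycle.

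Accessibility was measured by ATAC-seq, in which the Tn5 transposase cuts open chromatin, in 24 libraries, 2 for each of 12 cell types. The primary cells came from adult C57BL6 mice. LSK (lineage-negative, Sca1-positive, cKit-positive stem and multipotent cells), CMP (common myeloid progenitors), GMP (granulocyte and macrophage progenitors), MEP (megakaryocyte and erythroid progenitors), CFUE (erythroid colony-forming cells), ERY (erythroblasts), CFUMK (megakaryocyte colony-forming cells) and iMK (immature megakaryocytes) were taken from bone marrow. MON (monocytes) and NEU (neutrophils) were taken from peripheral blood. G1E is an immortal line of erythroid progenitors that lacks GATA1. G1E-ER4+E2 is a clone of G1E carrying a GATA1-ER hybrid protein that estradiol (E2) activates, and its label gives E2 treatment. This pair of groups thus compares 1 treated clone with its parent line. Clone, hybrid protein and E2 treatment cannot be told apart in it. The study describes its replicates as biological, for example cells of separate mouse groups taken on other days, or separately processed sorter aliquots of 1 group. No label says which holds for the 2 libraries of a type. The spread between them may thus be technical, and p-values measure only that spread.

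Each library is a list of called peaks with a score, and the depth behind a score is unknown. The lists held 52720 (G1E 1) to 230877 (GMP 1) peaks, so that a promoter without a peak in a short list is listed at 0, which is not evidence of closed chromatin. A promoter was called where a peak came within 500 bp of an annotated transcript start, and its score was the sum of the scores of those peaks. Scores were multiplied by 1 factor per library so that the 8230 promoters called in all 24 libraries had the same median, 6.44 on the log2 scale, and the values below are these scaled scores. A lower score can come from fewer cells with an open promoter or from less cutting per cell, which cannot be told apart. Peaks at marker promoters were set against the labels. All 7 erythroid markers were called in both libraries of MEP, CFUE, ERY, G1E-ER4+E2 and G1E, all 5 neutrophil markers in NEU and 3 of 5 monocyte markers in MON. CFUMK also had all 7 erythroid markers called, with summed scores of 279 and 310 against 523 and 462 in MEP. In CMP and iMK 6 of the 7 were called. In iMK, however, 2 of 5 megakaryocyte markers (Itga2b, Gp1ba, Gp1bb, Gp9, Pf4) were called in both libraries, with summed scores of 54.8 and 52.7 in iMK against 145 and 122 in CFUMK, where all 5 were called. All 5 neutrophil markers (S100a8, S100a9, Cxcr2, Csf3r, Mmp8) were called in iMK. Their summed scores were 294 and 301 in iMK against 122 and 138 in CFUMK and 139 and 172 in NEU. The scores were 211 and 180 in GMP, and 302 and 48.9 in LSK, whose libraries differed widely. These markers were also all called in GMP, and 4 of the 5 in CFUMK. All 5 monocyte markers were called in iMK, but also in CMP, GMP and CFUMK. Their summed scores were 83.8 and 84.4 in iMK against 60.6 and 58.7 in CFUMK. The megakaryocyte list scored 281 and 315 in CMP and 205 and 378 in LSK, above CFUMK. The iMK libraries thus go against their label by the megakaryocyte and neutrophil scores. Neither the monocyte calls nor neutrophil scores above those of NEU are particular to iMK. Below, iMK stands for the libraries labelled as immature megakaryocytes. In both NEU libraries all 3 B cell markers (Cd79a, Pax5, Ms4a1) were called as well, with summed scores of 178 and 160.2 in NEU. The B cell scores were 13.6 and 25.6 in MON and 34.4 and 23.2 in GMP. Of 4 T cell markers 2 were called in NEU, and likewise 2 in CMP, GMP, iMK and MON. The summed T cell scores were 171 and 150.0 in NEU, 45 and 61.5 in GMP, 67.8 and 76.5 in MON and 49.9 and 90.7 in LSK. The part of these peaks in the iMK and NEU values was not tested.

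The first stretch (A) runs from 21710763 to 21842530 on chromosome 13 in mm10 and holds 18 members in 131.768 kb. The second (B), from 22030164 to 22048676, holds 5 members in 18.513 kb. The third (C), from 23526050 to 23769406, holds 29 members in 243.357 kb. The fourth (D), from 23928773 to 23939851, holds the testis pair Hist1h2ba and Hist1h2aa in 11.079 kb. Each stretch includes 5 kb on either side of its outer genes. The starts of 24 members lie within 1000 bp of another member's start, so that their windows overlap and their scores are not separate measurements, whereas 30 members have a window of their own. Hist1h2an and Hist1h2bp had identical scores in all 24 libraries, as did Hist1h2bf and Hist1h2ad, because the same peaks fell in both windows.

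Promoter sequences of 8 members are given here because the results below turn on them: the linker histone genes Hist1h1b and Hist1h1d, the testis genes Hist1h1t and Hist1h2ba, and Hist1h2ab, Hist1h2bg, Hist1h3e and Hist1h4d, which differed between cell types. Each is the RefSeq promoter of build GRCm38.p6 (the assembly also called mm10), 250 bases before to 50 from the RefSeq start, 5′ to 3′ on the gene's strand. Capitals mark 4 motifs searched on both strands: the TATA box with the letters TATAAA, the box named CCAAT for its letters, which read ATTGG on the opposite strand, the octamer spelled ATTTGCAT, and the H1 box spelled AAACACA.
Hist1h1b: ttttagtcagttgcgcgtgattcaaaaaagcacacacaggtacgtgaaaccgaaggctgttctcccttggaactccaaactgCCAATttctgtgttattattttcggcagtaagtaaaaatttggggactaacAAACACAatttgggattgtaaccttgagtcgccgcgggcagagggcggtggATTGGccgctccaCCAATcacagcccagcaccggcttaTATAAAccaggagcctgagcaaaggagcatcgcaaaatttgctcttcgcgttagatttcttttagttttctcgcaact
Hist1h1d: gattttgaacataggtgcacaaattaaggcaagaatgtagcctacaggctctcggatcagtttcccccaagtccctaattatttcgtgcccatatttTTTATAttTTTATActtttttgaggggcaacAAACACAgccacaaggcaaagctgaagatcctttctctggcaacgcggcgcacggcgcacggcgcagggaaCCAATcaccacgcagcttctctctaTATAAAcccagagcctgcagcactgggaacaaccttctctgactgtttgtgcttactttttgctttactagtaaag
Hist1h1t: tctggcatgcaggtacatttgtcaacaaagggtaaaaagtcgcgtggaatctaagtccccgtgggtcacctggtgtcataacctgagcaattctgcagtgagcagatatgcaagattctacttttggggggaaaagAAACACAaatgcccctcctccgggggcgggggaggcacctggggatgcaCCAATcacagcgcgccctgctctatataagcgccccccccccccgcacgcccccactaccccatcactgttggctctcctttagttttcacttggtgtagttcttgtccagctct
Hist1h2ab: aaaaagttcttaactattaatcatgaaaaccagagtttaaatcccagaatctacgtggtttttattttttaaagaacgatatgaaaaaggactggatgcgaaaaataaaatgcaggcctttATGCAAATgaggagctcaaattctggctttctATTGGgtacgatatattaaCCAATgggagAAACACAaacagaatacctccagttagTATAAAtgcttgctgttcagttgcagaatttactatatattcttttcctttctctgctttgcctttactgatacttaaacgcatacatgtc
Hist1h2ba: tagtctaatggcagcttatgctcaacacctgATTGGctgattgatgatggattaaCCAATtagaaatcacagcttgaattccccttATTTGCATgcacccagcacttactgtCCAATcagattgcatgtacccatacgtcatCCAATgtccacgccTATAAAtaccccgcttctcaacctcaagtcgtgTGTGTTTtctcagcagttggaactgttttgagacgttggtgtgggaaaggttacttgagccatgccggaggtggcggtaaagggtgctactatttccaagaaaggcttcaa
Hist1h2bg: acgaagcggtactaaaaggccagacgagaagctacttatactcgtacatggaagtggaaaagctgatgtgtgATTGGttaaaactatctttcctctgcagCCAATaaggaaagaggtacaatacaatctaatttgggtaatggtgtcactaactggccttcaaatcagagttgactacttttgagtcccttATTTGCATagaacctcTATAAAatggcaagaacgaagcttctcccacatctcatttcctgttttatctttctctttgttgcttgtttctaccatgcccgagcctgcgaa
Hist1h3e: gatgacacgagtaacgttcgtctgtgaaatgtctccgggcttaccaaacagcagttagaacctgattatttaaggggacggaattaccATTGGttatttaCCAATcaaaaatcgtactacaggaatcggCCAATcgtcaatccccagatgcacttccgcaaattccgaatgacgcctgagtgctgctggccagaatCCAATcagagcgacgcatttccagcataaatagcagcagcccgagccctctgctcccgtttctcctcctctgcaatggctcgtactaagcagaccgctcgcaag
Hist1h4d: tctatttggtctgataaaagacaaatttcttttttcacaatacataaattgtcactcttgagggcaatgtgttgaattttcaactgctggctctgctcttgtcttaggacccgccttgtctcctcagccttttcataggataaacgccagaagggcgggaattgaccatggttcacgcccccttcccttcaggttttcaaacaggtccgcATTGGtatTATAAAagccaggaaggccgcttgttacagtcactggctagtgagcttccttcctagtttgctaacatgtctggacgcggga
These windows lie at chr13:21780576-21780875 on the minus strand (Hist1h1b), chr13:23554782-23555081 on the plus strand (Hist1h1d), chr13:23695561-23695860 on the plus strand (Hist1h1t) and chr13:23750838-23751137 on the plus strand (Hist1h2ab). The others lie at chr13:23934107-23934406 on the minus strand (Hist1h2ba), chr13:23571150-23571449 on the plus strand (Hist1h2bg), chr13:23562336-23562635 on the minus strand (Hist1h3e) and chr13:23581318-23581617 on the plus strand (Hist1h4d).

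A promoter sequence was matched for 51 of the 54 members, and the motifs followed the histone families. The CCAAT box was found in every one of the H1 (6), H2A (13), H2B (14) and H3 (7) promoters, but in 3 of 11 H4 promoters. Over the 51 members it was present in 84.3%, against 37.4% of all 32851 RefSeq promoters of the same length. TATAAA was present in 60.8% of member promoters, against 13.6% of all promoters, and in 13 members a copy on the gene's strand began 45 to 15 bp before the RefSeq start. The octamer, a site known for H2B genes, was found in 5 of 14 H2B and 5 of 13 H2A promoters and in no H1, H3 or H4 promoter, in all 19.6% of members against 1.74% of all promoters. The H1 box was found in 5 of 6 H1 promoters, with 17.6% of all members and 7.18% of all promoters holding it. Head-to-head H2A and H2B genes share part of these windows, so 1 match can count for both genes. The median GC content was 45.3% in member promoters, against 52.7% in all promoters.

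Hist1h promoters were called in nearly every cell type. In all, 44 of the 54 members (81.5%) were called in all 24 libraries, against 37.5% of all 21938 protein-coding genes. Among bone marrow progenitors, both libraries had a peak at 47 members in LSK (61.9% of all genes), 50 in CMP (64.2%), 50 in GMP (65.2%) and 50 in MEP (58.1%). In the erythroid branch the count was 51 in CFUE (48.3% of all genes) and 50 in ERY (46.9%), and in the megakaryocyte branch it was 50 in CFUMK (64.2%) and 48 in iMK (60.7%). Blood MON had 48 members called (52.6% of all genes) and blood NEU 46 (51.4%). The line pair had 49 in G1E-ER4+E2 (44.7% of all genes) and 50 in G1E (41.8%). The share of all genes called therefore ranged from 41.8% to 65.2% over types with very different numbers of peaks, while the members stayed between 46 and 51 of 54.

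**Figure D1:**
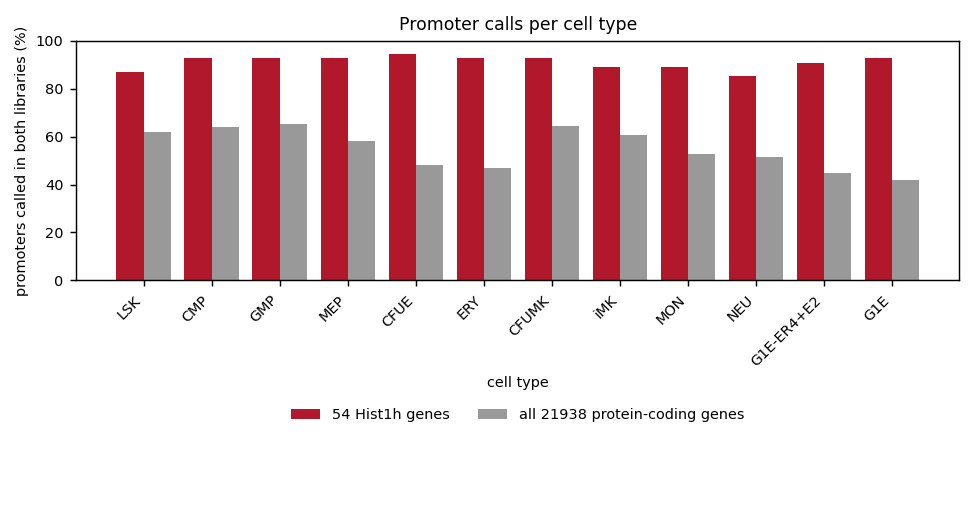
Share of promoters (%, y axis) with a peak within 500 bp of a start in both libraries of each cell type (x axis), for the 54 Hist1h genes (red) and all 21938 protein-coding genes (grey). The Hist1h share lies above the share of all genes in each type, with 46 (NEU) to 51 (CFUE) of 54 genes called.

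The 10 members that were not called in all libraries fall into 2 kinds. Hist1h1t, the linker histone gene of spermatocytes, had no peak in any of the 24 libraries, and neither did the annotated start of Hist1h1d, which is taken up below. Hist1h2aa and Hist1h2ba encode the testis forms of H2A and H2B; Hist1h2ba scored 1.34 and 2.33 in CFUE and was listed at 0 in every other library, and Hist1h2aa scored 1.34 in CFUE 1 alone. These scores are close to the lowest in any list, which was 1.01 as deposited. The other 6 are replication-dependent genes that each lacked a peak in a few libraries. Hist1h2ab was listed at 0 in 7 libraries, namely both of iMK, both of MON, NEU 2, LSK 2 and G1E-ER4+E2 1. Hist1h3c was at 0 in LSK 2 and MON 1, Hist1h3b in LSK 2 and NEU 1, Hist1h4b and Hist1h1b in NEU 2, and Hist1h2af in iMK 1.

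**Figure D2:**
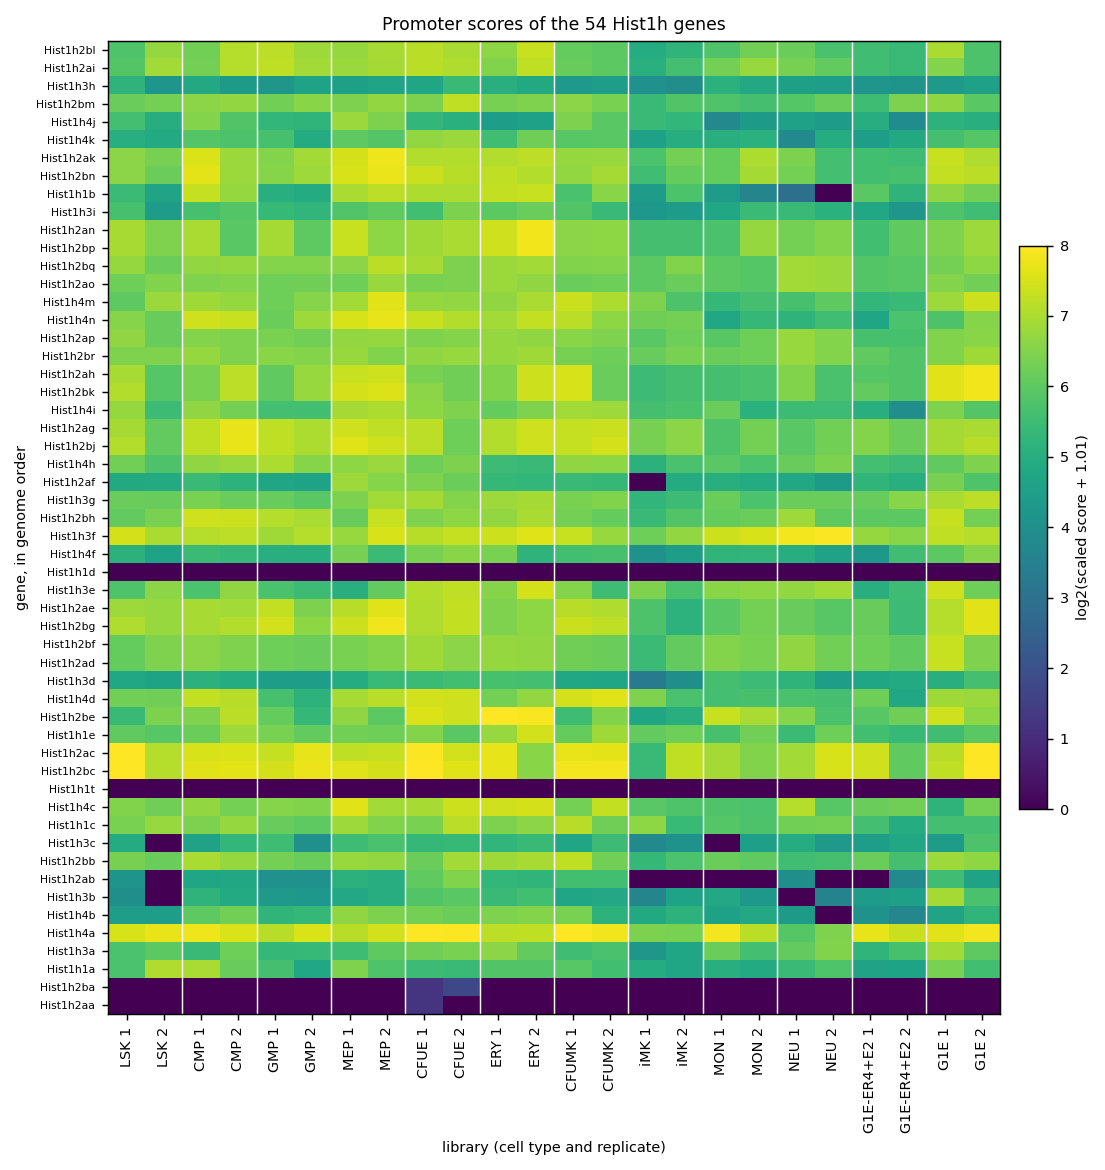
Promoter scores of the 54 Hist1h genes (rows, genome order) in the 24 libraries (columns), as log2(scaled score + 1.01), where dark purple is a promoter listed at 0. Hist1h1t and Hist1h1d are dark throughout, Hist1h2ba and Hist1h2aa are at or near 0, Hist1h2ab is dark in iMK and MON, and most other genes lie between 4 and 8.

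The median level of the 51 members tested was highest in the primary types ERY, MEP and CFUE. It was lowest in iMK and in G1E-ER4+E2, itself an erythroid line. On the scale log2(scaled score + 1.01) the median was 6.79 in ERY, followed by MEP at 6.72, CFUE at 6.72, CMP at 6.59, G1E at 6.50, CFUMK at 6.48, LSK at 6.28 and GMP at 6.27. It was lower in NEU at 6.04, MON at 5.93, iMK at 5.61 and G1E-ER4+E2 at 5.58. The median difference between the 2 libraries of a type over these genes was 0.15 in CFUMK to 0.50 in LSK, and no step between neighbours in this order exceeded 0.50. Over all 16295 genes tested the order was another one, with the highest median in LSK at 5.60 and the lowest in ERY at 4.59. By family, the median level over types was 6.50 for H2B, 6.46 for H2A, 6.17 for H4, 5.89 for H1 and 5.38 for H3. Scores are summed around every annotated start, and Hist1h2be and Hist1h2br have 3 starts and Hist1h2bp and Hist1h2bq 2. These are all H2B genes, so the windows differ in size between families. The windows of neighbouring genes also overlap, so these family levels are not independent of gene density.

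Among single genes, Hist1h4a and the head-to-head pair Hist1h2ac and Hist1h2bc had the highest mean levels in their families, at 7.38, 7.26 and 7.34 on the log2 scale. Hist1h4a scored 304 and 245 in CFUE, 84.3 and 82.3 in iMK and 58.6 and 86.6 in NEU, the lowest values of this gene being those of NEU and iMK. Hist1h3f led the H3 genes at 7.16. Its annotated start lies 660 bp from that of Hist1h2bh, so that their windows overlap, and 433 bp from its own coding start. Around the coding start Hist1h3f scored 49.6 and 57.2 in CMP, against 138 and 146 around the annotated start. In NEU the values were 120 and 185 against 232 and 249.

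The linker histone genes differed among themselves. Hist1h1c and Hist1h1e, the main somatic linker histone genes of many differentiated cells, had peaks in all 24 libraries and scored 30.2 to 143 and 39.7 to 174 over the libraries. Hist1h1a ranged from 23.3 to 131, with its lowest values in G1E-ER4+E2 and its highest in LSK 2 and CMP 1. Hist1h1b, whose product is tied to proliferating cells, had the widest range of the 4. It scored 153 and 161 in ERY, 126 and 147 in MEP, 128 and 128 in CFUE and 157 and 106 in CMP. In GMP it scored 31.3 and 29.1, in MON 20.5 and 11.5 and in NEU 6.74 and 0. The CMP, MEP, CFUE and ERY libraries all lay above the 6 libraries of GMP, MON and NEU.

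Differences between neighbouring stages were tested with limma (trend and robust variance) on log2(scaled score + 1.01) in all 24 libraries, with p-values adjusted by Benjamini and Hochberg over 16295 genes, and a promoter passed at an adjusted p under 0.05. Of the 54 members 51 entered the test; 3 (Hist1h1d, Hist1h1t, Hist1h2aa) had peaks in fewer than 2 libraries. The 8 comparisons share libraries where a cell type serves in several of them, and head-to-head genes share peaks. In all, 32 of the 51 members passed in at least 1 comparison, where 72.1% of all genes did, and 11 in 2 or more, where 39.6% of all genes did. Hist1h2bg passed in 4, each time as a fall.

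**Figure D3:**
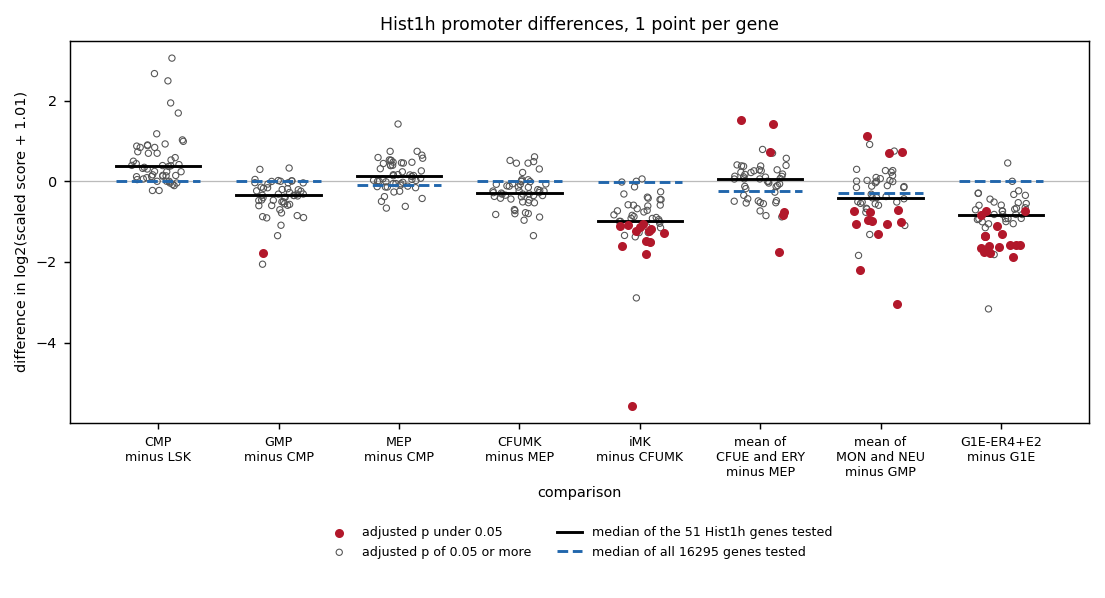
Difference in log2(scaled score + 1.01) (y axis) of the 51 Hist1h genes tested (1 point each) in the 8 comparisons (x axis), filled red at an adjusted p under 0.05; bars give the median of the 51 genes (black) and of all 16295 genes tested (dashed blue). The Hist1h median lies at -0.99 for iMK minus CFUMK and -0.85 for G1E-ER4+E2 minus G1E, where the median of all genes is -0.02 and 0.00.

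At entry into the myeloid lineage, CMP against LSK, no member passed, where 1.72% of all genes passed in either direction; 13 members had an unadjusted p under 0.05 in limma. Of the 51 members 43 were higher in CMP than in LSK, by a median of 0.37 on the log2 scale, with 0 for all genes. Without LSK 1 the count of members that passed was 7. Both LSK libraries carry numbers outside the run of the other marrow libraries, so number run and cell type cannot be told apart in this comparison.

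In GMP against CMP, 1 of 51 members fell (1.83% of all genes fell). It was Hist1h4d, an H4 gene, which scored 49.8 and 35.4 in GMP against 153 and 140.5 in CMP. The groups did not overlap, and the difference was -1.78 on the log2 scale (SE 0.33, adjusted p = 0.0056). The median member difference was -0.35. Without GMP 2 no member passed, Hist1h4d included, nor did any in a fit to the CMP and GMP libraries alone, while 5 fell in a fit to the 14 libraries of CMP, GMP, MEP and the erythroid and megakaryocyte types alone.

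In MEP against CMP no member passed (12.2% of all genes passed in either direction), and none had an unadjusted p under 0.05. The medians were 0.12 for members and -0.09 for all genes. Leaving out MEP 2 gave 1 member. In CFUMK against MEP again no member passed (7.24% of all genes in either direction), with 5 at an unadjusted p under 0.05 and a median of -0.28, against 0 for all genes.

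In iMK against CFUMK, by the labels the step from a megakaryocyte colony-forming cell to an immature megakaryocyte, 13 of 51 members fell and none rose, and 49 of 51 were lower in iMK. Among all genes 7.19% fell. The median was -0.99 for members and -0.02 for all genes. The 13 members cover H2A (Hist1h2ab, Hist1h2ae), H2B (Hist1h2bg, Hist1h2bb), H3 (Hist1h3i, Hist1h3a, Hist1h3d, Hist1h3g) and H4 (Hist1h4a, Hist1h4d, Hist1h4h, Hist1h4k, Hist1h4m), but none of the 4 linker histone genes tested. Hist1h1d was not among those 4. The peak at its coding start (C2, described below) did fall, with 75.2 and 77.6 in iMK against 133 and 134 in CFUMK. Hist1h2ae and Hist1h2bg share 1 promoter. Neutrophil marker peaks were higher and megakaryocyte marker peaks lower in the same iMK libraries, as given above, and their part in these falls was not tested.

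Hist1h2ab, an H2A gene whose promoter holds an octamer, was listed at 0 in both iMK libraries, against 47 and 46.8 in CFUMK (adjusted p = 0.0095). Its call was lost when any 1 of these 4 libraries was left out. Hist1h2bg scored 54 and 35.3 in iMK against 162 and 150.2 in CFUMK, a difference of -1.81 on the log2 scale (SE 0.29, adjusted p = 0.0008). Its partner Hist1h2ae scored 54 and 35.3 in iMK against 140.3 and 132 in CFUMK, with a difference of -1.61 (SE 0.29, adjusted p = 0.0022). For both genes every iMK library lay below every CFUMK library. The other 10 members that fell had differences of -1.50 (Hist1h4a) to -1.05 (Hist1h3g). The count was 5 without CFUMK 1, 8 without CFUMK 2 and 5 without iMK 1. With unscaled scores it was 3, without Hist1h2ae, and in a fit to the 14 libraries of iMK, CFUMK, ERY, CFUE, MEP, GMP and CMP alone it was 20. Of the members whose 500 bp upstream held no repeated 30-mer 6 of 20 fell, and of the others 7 of 31.

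In CFUE and ERY against MEP, 3 members rose (13.5% of all genes rose) and 3 fell (34.4% of all genes fell), with medians of 0.06 for members and -0.23 for all genes. With scores as deposited, unscaled, 21 members rose and none fell. Hist1h3e, an H3 gene, scored 133 and 149 in CFUE and 93.4 and 179.7 in ERY against 32.3 and 67 in MEP. The rise was 1.51 on the log2 scale (SE 0.41, adjusted p = 0.0056), and all 4 libraries lay above both of MEP. Hist1h2be scored 189 and 169.5 in CFUE and 252 and 244 in ERY against 99.9 and 61.7 in MEP (difference 1.41, SE 0.36, adjusted p = 0.0039), at annotated starts that lie far from its coding sequence. The third rise, that of the testis gene Hist1h2ba, rests on the 2 low CFUE scores above (adjusted p = 0.048), with ERY and MEP both listed at 0. The gene passed the filter of a call in at least 2 libraries only through CFUE, so this rise is no separate support. It was lost without MEP 1, MEP 2, CFUE 2 or either ERY library.

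The falls in CFUE and ERY were those of 2 H4 genes and of Hist1h2bg. Hist1h4j scored 38.7 and 32.8 in CFUE and 21.6 and 22.9 in ERY against 111 and 84.4 in MEP, a difference of -1.74 (SE 0.29, adjusted p = 9.9e-05). Hist1h4h scored 75.1 and 85.2 in CFUE and 44.1 and 41 in ERY against 99.2 and 109.7 in MEP, a difference of -0.83 (SE 0.20, adjusted p = 0.0025). Hist1h2bg scored 132 and 151 in CFUE and 85.7 and 98.2 in ERY against 168 and 225 in MEP, a difference of -0.77 (SE 0.25, adjusted p = 0.018). In all 3 genes the ERY libraries were the lowest and no library overlapped with MEP. With unscaled scores the differences of Hist1h4h and Hist1h2bg changed sign, and those calls are relative to the scaling. Hist1h4h did not pass with a window of 1000 bp, nor Hist1h2bg with 250 bp. Leaving out MEP 2 left 3 members in all, and removed Hist1h2be and Hist1h2bg, while leaving out MEP 1 removed Hist1h3e.

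In MON and NEU against GMP, 3 members rose (10.2% of all genes rose) and 11 fell (29.2% of all genes fell). The 11 falls among 51 members make up a smaller share than that of all genes, while the median was -0.41 for members and -0.28 for all genes. With unscaled scores 32 members fell and none rose. The linker histone gene Hist1h1b, whose scores are given above, had a difference of -2.21 on the log2 scale (SE 0.57, adjusted p = 0.0058). NEU 2 is listed at 0, so this difference depends on the pseudocount, and the call was lost without GMP 1. Hist1h2ab scored 14.7 and 0 in NEU and was listed at 0 in both MON libraries, against 15.7 and 15.4 in GMP (adjusted p = 0.035); this call was lost without any 1 of these libraries except NEU 1. Hist1h4n scored 26.3 and 39.2 in MON and 36.1 and 46.2 in NEU against 73 and 113 in GMP, a difference of -1.30 (SE 0.29, adjusted p = 0.0019), and did not pass without GMP 2.

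The other falls in MON and NEU were those of Hist1h2ag, Hist1h2bj, Hist1h2bl, Hist1h4j, Hist1h2bg, Hist1h2ae, Hist1h4m and Hist1h4h, with differences of -1.05 (Hist1h2ag) to -0.71 (Hist1h4h). Hist1h2ag and Hist1h2bj share a promoter, as do Hist1h2ae and Hist1h2bg. The rises were all of H3 genes. Hist1h3e scored 94.5 and 98.1 in MON and 103 and 118 in NEU against 51 and 43.6 in GMP (difference 1.11, SE 0.41, adjusted p = 0.042), but this call was lost without any 1 of these 6 libraries. Hist1h3f scored 167 and 183 in MON and 232 and 249 in NEU against 116 and 136 in GMP (difference 0.70, SE 0.21, adjusted p = 0.016), not passing without GMP 1 or with windows of 250 or 1000 bp, and turning negative with unscaled scores. Hist1h3d rose by 0.73 with overlapping libraries. The count of members was 2 without GMP 1, 7 without GMP 2 and 9 without MON 1. MON and NEU come from blood, carry library numbers apart from those of GMP and come with the B cell marker peaks in NEU, so tissue, number run and cell type cannot be told apart here.

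In G1E-ER4+E2 against G1E, 16 of 51 members fell and none rose, while 3.5% of all genes fell. The median was -0.85 for members and 0 for all genes, and 49 of 51 members were lower in G1E-ER4+E2. The 16 genes are Hist1h2ah with Hist1h2bk, Hist1h2ak with Hist1h2bn, Hist1h2ae with Hist1h2bg and Hist1h2ap with Hist1h2br, which are 4 head-to-head pairs, and the single genes Hist1h4m, Hist1h4i, Hist1h3e, Hist1h4f, Hist1h1a, Hist1h4d, Hist1h4k and Hist1h3g. Hist1h2ah scored 58.1 and 55.3 in G1E-ER4+E2 against 197 and 228 in G1E, a difference of -1.88 (SE 0.43, adjusted p = 0.0097). Its partner Hist1h2bk scored 66.4 and 55.3 in G1E-ER4+E2 against 197 and 228 in G1E, a difference of -1.79 (SE 0.45, adjusted p = 0.017). Hist1h4m, an H4 gene, scored 38.2 and 40.7 in G1E-ER4+E2 against 112 and 166 in G1E, a difference of -1.76 (SE 0.30, adjusted p = 0.00089).

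The linker histone gene Hist1h1a scored 23.3 and 24 in G1E-ER4+E2 against 82.8 and 46.7 in G1E, a difference of -1.36 (SE 0.40, adjusted p = 0.043). Neither library of G1E-ER4+E2 overlapped with G1E for these 4 genes. Calls in the line pair depended on the library set and the scaling. The count was 9 without G1E 1, 10 without either G1E-ER4+E2 library, and 0 both with unscaled scores and in a fit to these 4 libraries alone. Hist1h2bk was lost without any 1 of the 4 libraries, Hist1h2ah without G1E-ER4+E2 2, and Hist1h1a without any except G1E 2, while Hist1h4m passed without each in turn.

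The study states in general that its pipelines let reads map to genes and intervals with several copies. Its detailed methods repeat this for ChIP-seq, while those for ATAC-seq do not mention it. These lists do hold peaks in sequence that is repeated throughout, which matters for near-identical genes. A median of 37.2% of the 30-mers (sequences of 30 bases, the trimmed read length) in a member's window of 500 bp on either side of its start occur more than once in the genome, with a range of 0 to 100% and 19 of 54 members over 50%. In the 500 bp upstream alone the median was 8.6%, and 22 members had no repeated 30-mer. Hist1h2bq, Hist1h2ao, Hist1h2ap and Hist1h2br lie in a duplicated block and were repeated throughout, so their scores cannot be assigned to 1 copy. Hist1h4m (96.4%) and Hist1h4n (97.3%) lie beside them. For Hist1h1a (0.3%), Hist1h1b (2.5%) and Hist1h3f (1.0%) nearly all of the window was unique. In G1E-ER4+E2 against G1E, 3 of the 20 members with no repeated upstream 30-mer fell, and 13 of the other 31, with medians of -0.72 and -0.92. In MON and NEU against GMP 3 of the 20 fell, and 8 of the other 31, with medians of -0.16 and -0.43.

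Histone genes outside the Hist1 cluster and genes that act on histone supply were read in the same fit. Among all genes 7.19% fell in iMK against CFUMK and 3.5% in G1E-ER4+E2 against G1E. In CFUE and ERY against MEP 13.5% of all genes rose and 34.4% fell. In MON and NEU against GMP 10.2% of all genes rose and 29.2% fell. Of 13 other replication-dependent histone genes (the Hist2, Hist3 and Hist4 genes) 11 were tested and 10 were called in all 24 libraries, against 37.5% of all genes. In iMK against CFUMK 1 of them fell, Hist3h2ba, with a list median of -0.58. Of these 11 genes 4 rose and 1 fell in CFUE and ERY against MEP, the largest rise being Hist2h3c1 at 1.01 (adjusted p = 0.022) and the fall Hist4h4 at -1.17 (adjusted p = 0.0016). In MON and NEU against GMP Hist3h2ba, listed at 0 in GMP, rose and Hist4h4 fell by 1.71 (adjusted p = 0.00011). In G1E-ER4+E2 against G1E Hist4h4 alone of this list fell, and it fell by 1.14 (adjusted p = 0.028). Of 11 replacement histone genes 1 rose and 2 fell in CFUE and ERY against MEP, and likewise 1 rose and 2 fell in MON and NEU against GMP. Among them H2afx, the H2A variant marked at DNA breaks, rose by 1.86 in CFUE and ERY (adjusted p = 0.00066). In the same comparison H1f0, the replacement linker histone of resting cells, fell and was listed at 0 in all 4 CFUE and ERY libraries (adjusted p = 5.2e-07).

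All 23 genes of histone gene transcription and histone mRNA processing were called in all 24 libraries, against 37.5% of all genes. Npat, the coactivator of the histone locus body, rose by 1.48 in iMK against CFUMK (adjusted p = 0.0038), where Ccne2, encoding a cyclin E, fell by 0.90 (adjusted p = 0.013). Of the 23 genes 6 rose and 3 fell in CFUE and ERY against MEP, where 13.5% of all genes rose and 34.4% fell. Among them were Zfp473, a part of the histone mRNA processing machinery, at 1.58 (adjusted p = 1.8e-06) and Coil, the coilin gene of Cajal bodies, at -1.45 (adjusted p = 9.3e-05). In MON and NEU against GMP 2 rose and 5 fell, where 10.2% of all genes rose and 29.2% fell, with Ccne2 at -1.61 (adjusted p = 5.9e-06). Of 24 S-phase replication genes 3 rose and 11 fell in MON and NEU against GMP, with the list median at -0.46, and Tk1, the S-phase thymidine kinase, was listed at 0 in all 4 MON and NEU libraries (adjusted p = 6.8e-07). Tk1 also fell by 1.62 in iMK against CFUMK (adjusted p = 0.019) and by 1.34 in G1E-ER4+E2 against G1E (adjusted p = 0.049). Of the 24 replication genes 5 rose in CFUE and ERY against MEP, led by the histone chaperone gene Asf1b at 1.99 (adjusted p = 6.6e-05), and 4 fell. In the 4 comparisons among LSK, CMP, GMP, MEP and CFUMK at most 2 genes of any of these lists rose and at most 2 fell. Among all genes 1.72% passed in CMP against LSK, 12.2% in MEP against CMP and 7.24% in CFUMK against MEP. In GMP against CMP 1.83% of all genes fell.

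Peaks sat just upstream of the Hist1h starts. Averaged over the 24 libraries, 52.8% of members had a peak centre in the 100 bp before their 5′ end, against 27.8% of all protein-coding genes. A further 37.0% had one between 200 and 100 bp upstream, against 12.2% of all genes. From 200 to 300 bp downstream the shares were 7.1% for members and 14.1% for all genes. A gene can count in several bins, and peaks were at most 150 bp wide. The annotated 5′ ends of some members, such as Hist1h2bl and Hist1h3h, coincide with the coding start. One peak between head-to-head genes can count upstream of both. The part of either in the upstream position was not tested.

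**Figure D4:**
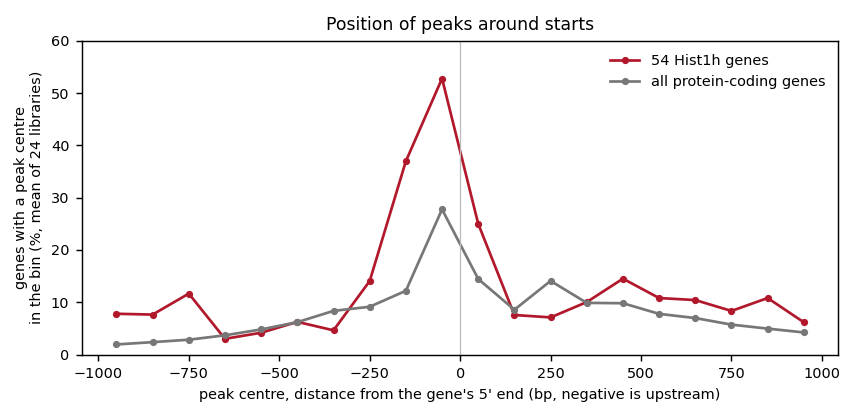
Share of genes (%, mean of 24 libraries, y axis) with a peak centre in each 100 bp bin of distance from the gene's 5′ end (x axis, negative upstream), for the 54 Hist1h genes (red) and all protein-coding genes (grey). The Hist1h curve peaks at 52.8% in the last 100 bp before the start, where all genes are at 27.8%.

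Between the genes, the stretches held 111 elements, an element being a peak found in both libraries of a type (1 bp overlap) and merged over the 12 types. Of these 44 lay over 500 bp from every Hist1h start and are numbered in genome order within their stretch (A1 to A14, B1, B2, C1 to C28). Of the 44 elements 18 lie inside a gene, 2 cover a tRNA gene (A1 and C1), 11 were found in both libraries of 1 type alone, and 27 hold no 30-mer that occurs elsewhere. MON had 25 of the 44 in both libraries, the most of any type, or 56.8%, where it had 25.6% of all elements of the genome. G1E-ER4+E2 had 11, the fewest, or 25%, where it had 16.4% of all elements. Single lists held 28 (NEU 1) to 62 (CFUE 1) peaks between the genes.

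Elements that were called in all 24 libraries numbered 3, and 2 of them turned out to mark the coding starts of members. Element C2 (chr13:23554905-23555497) covers the coding start of Hist1h1d at 23555090, whereas the GENCODE start of this gene lies 1828 bp away and had no peak. The Hist1h1d promoter printed above is that of the RefSeq start, and it overlaps this element. Element C6 (chr13:23585880-23586156) covers the coding start of Hist1h2be at 23585956, which lies 35122 bp from its nearest annotated start; the Hist1h2be values above thus belong to the distal starts. The other 52 members have their coding start within 433 bp of an annotated start. When calls were made around the coding start instead, a choice made after seeing the data, 45 members were called in all 24 libraries and 1 in none. The third element, A14 (chr13:21840531-21840748), is repeated throughout and matches A11 in the duplicated block, so that its calls cannot be assigned to 1 copy.

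C2, at the linker histone gene Hist1h1d, scored 149 and 130.5 in CMP against 51.3 and 48.4 in LSK, a difference of 1.47 on the log2 scale (SE 0.26, adjusted p = 0.0011). It scored 25.6 and 20.9 in GMP against the CMP values, a difference of -2.54 (SE 0.26, adjusted p = 3.3e-06). These GMP libraries were low, as were those of MON at 21.4 and 24.1 and NEU at 26.1 and 21, while MEP, CFUE, ERY and CFUMK lay between 97.0 and 141. C2 also fell in iMK against CFUMK and in G1E-ER4+E2 against G1E, with 75.2 and 77.6 in iMK and 133 and 134 in CFUMK, and 27.7 and 21.1 in G1E-ER4+E2 and 75.3 and 39.8 in G1E.

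C6, at the coding start of Hist1h2be, scored 37.1 and 34.5 in GMP against 107 and 102 in CMP, a difference of -1.52 (SE 0.17, adjusted p = 1.1e-05). In iMK it rose, with 63.7 and 86.4 in iMK against 45.6 and 44.5 in CFUMK (difference 0.71, SE 0.17, adjusted p = 0.0074), a call lost without iMK 2. It fell by 0.51 in CFUE and ERY against MEP, with 58.1 and 56.1 in CFUE and 76.2 and 86.7 in ERY against 94.1 and 101 in MEP, whereas the distal promoter of Hist1h2be rose in that comparison. Its sequence and those of 2 elements called in MEP, CFUE, ERY and CFUMK are given because they carry these results, on the plus strand of GRCm38.p6. Capitals mark CCAAT and octamer matches in C6 and GATA motifs in the other 2, searched on both strands as AGATAA and with the first letter changed as TGATAA, and likewise ending in G as AGATAG and as TGATAG.
C6: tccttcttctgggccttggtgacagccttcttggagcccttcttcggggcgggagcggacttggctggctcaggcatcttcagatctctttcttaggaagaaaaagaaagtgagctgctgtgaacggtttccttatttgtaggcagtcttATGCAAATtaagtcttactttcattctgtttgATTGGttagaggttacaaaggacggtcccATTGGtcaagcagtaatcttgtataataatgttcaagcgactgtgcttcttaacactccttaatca
C9: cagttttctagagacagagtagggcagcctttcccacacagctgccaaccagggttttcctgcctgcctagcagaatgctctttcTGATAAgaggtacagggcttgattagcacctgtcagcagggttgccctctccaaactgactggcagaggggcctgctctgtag
C11: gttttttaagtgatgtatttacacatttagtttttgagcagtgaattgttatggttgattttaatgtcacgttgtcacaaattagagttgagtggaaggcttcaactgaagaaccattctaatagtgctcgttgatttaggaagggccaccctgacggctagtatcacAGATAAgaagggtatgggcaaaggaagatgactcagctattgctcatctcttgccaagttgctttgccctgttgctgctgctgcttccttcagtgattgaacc
Of all 207525 elements of the genome 28.7% hold such a GATA motif in a window of 168 bp (the width of C9) and 40.3% in one of 271 bp (the width of C11).

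C9 (chr13:23596092-23596259) and C11 (chr13:23609161-23609431) lie in an intron of the Hist1h2be gene model. C9 scored 34.4 and 31.4 in MEP and was listed at 0 in both CMP libraries (adjusted p = 3.3e-12). It scored 43.9 and 46.3 in CFUE and 53.3 and 50.5 in ERY, a rise over MEP of 0.54 (SE 0.14), and 13.4 and 14.5 in CFUMK, a difference from MEP of -1.18 (SE 0.16). All 4 libraries of CFUE and ERY lay above MEP, and both of CFUMK below it. No library of LSK, CMP, GMP, iMK, MON, NEU, G1E or G1E-ER4+E2 had a peak at C9. C11 scored 34.7 and 48.6 in CFUE and 74.3 and 45.5 in ERY against 10.9 and 11.7 in MEP, a difference of 2.02 (SE 0.69, adjusted p = 0.04), and 6.17 and 5.93 in CFUMK. Outside these types C11 had a peak in G1E 2 alone, at 14.9.

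**Figure D5:**
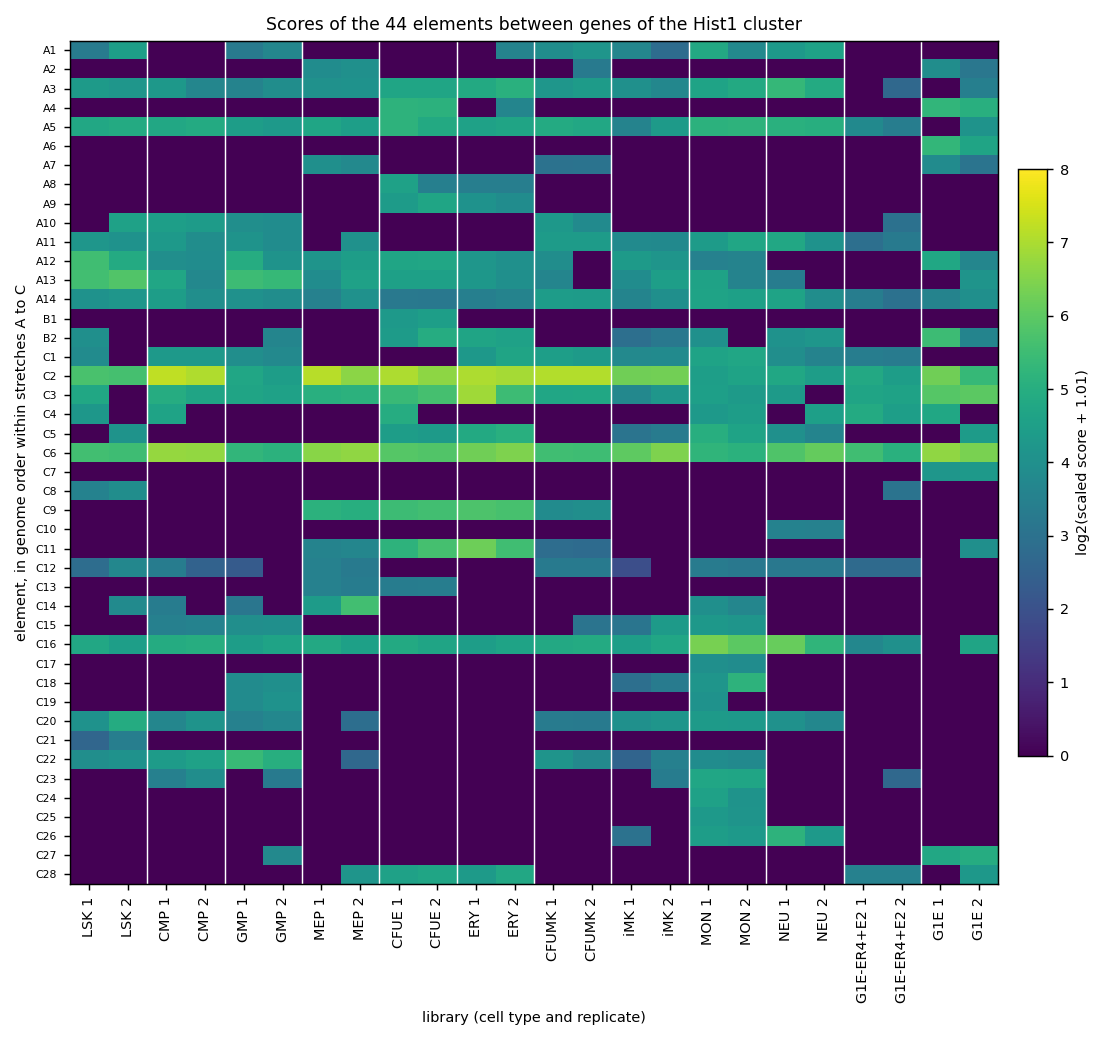
Scores of the 44 elements between Hist1h genes (rows, genome order within stretches A to C) in the 24 libraries (columns), as log2(scaled score + 1.01), where dark purple means no peak. C2, C6 and A14 are coloured in every library, C9 and C11 in MEP, CFUE, ERY and CFUMK, C11 also in G1E 2, and A6 in both G1E libraries alone.

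The test of elements used the same model over all 207525 elements of the genome. Where both libraries of a group are listed at 0 they show no spread, so the adjusted p of such an element understates its error, and no fold is given. An element also exists only where both libraries of some type had a peak. A6, A8, A9, C8, C19, C21, C26 and C27 thus entered the test only through the types in which they are high. Their adjusted p is therefore no separate support. Counts of elements and shares of all elements both include such cases. In CMP against LSK 4 of 44 elements rose (10.7% of all elements) and 3 fell (2.58%). The falls were A1 at the tRNA gene, C8 and C21, which scored 9.05 and 21.2, 10.6 and 14.1 and 5.28 and 9.74 in LSK and were listed at 0 in CMP (adjusted p = 0.0035, 0.00054 and 3.6e-09). Of the rises C15 (10.2 and 10.6) and C23 (10.3 and 14.1) were listed at 0 in LSK, and that of C23 was lost when any 1 of the 4 libraries was left out. No element passed in a fit to the CMP and LSK libraries alone, and 3 did with equal peak numbers. In GMP against CMP 3 rose (12.3% of all elements) and 2 fell (11.8%), the falls being C2 and C6. The rises were A1, with 8.79 and 11.8 in GMP, and C18 and C19 within the Hfe gene, with 13.6 and 14.9 and 13.6 and 15.9 in GMP, all 3 listed at 0 in CMP.

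In MEP against CMP 6 elements rose (10.5% of all elements) and 6 fell (24%). A2 and A7 scored 13.7 and 15.1 and 14.8 and 12.7 in MEP and were listed at 0 in CMP (adjusted p = 0.00027 and 1.5e-09). C1, at a tRNA gene, was listed at 0 in MEP against 18.4 and 19.2 in CMP (adjusted p = 0.00047), and A10 and C23 were likewise at 0 in MEP, the call of C23 being lost without CMP 2, MEP 1 or MEP 2. In CFUMK against MEP 6 rose (21.5%) and 7 fell (7.7%): C1, A1 and A10 scored 21.2 and 19.4, 14.2 and 17.1 and 18.4 and 13.1 in CFUMK and were at 0 in MEP (A10 did not pass without CFUMK 1), while C14 and C13, within the Hist1h2bc and Hist1h2ac genes, were at 0 in CFUMK against 19.9 and 47 and 10.5 and 9.26 in MEP. A12, which is repeated throughout, scored 14.1 and 0 in CFUMK against 16.8 and 20.9 in MEP and did not pass without CFUMK 2, MEP 1 or MEP 2.

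In iMK against CFUMK 3 elements rose (7.11% of all elements) and 6 fell (18.1%), or 4 in all without iMK 2. C9 and A7 were listed at 0 in iMK against 13.4 and 14.5 and 7.13 and 7.23 in CFUMK, as was A10, whose call was lost without CFUMK 1 or either iMK library. C18 in Hfe scored 6.62 and 8.97 in iMK and was listed at 0 in CFUMK, and C15 scored 7.62 and 19.7 in iMK against 0 and 7.36 in CFUMK, a call lost without CFUMK 1 or iMK 2. In CFUE and ERY against MEP 9 rose (5.73%) and 7 fell (25.1%). A8, A9, B2 and C5 were listed at 0 in both MEP libraries. A9, 19.8 and 25 in CFUE and 15.7 and 14 in ERY, had no peak in any other type (adjusted p = 2.8e-12), and it entered the test through CFUE and ERY alone. B2 scored 20.02 and 30.1 in CFUE and 24.5 and 22.7 in ERY, and C5, in the Hist1h2be gene, scored 20.8 and 19.7 in CFUE and 28.1 and 32.1 in ERY. A2, A7 and C14 were listed at 0 in all 4 CFUE and ERY libraries.

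In MON and NEU against GMP 7 elements rose (6.86% of all elements) and 7 fell (33.8%), and 8 of these 14 had overlapping libraries. C26, between Hfe and Hist1h1c, scored 21 and 18.6 in MON and 35.2 and 19.1 in NEU and was listed at 0 in GMP (adjusted p = 8.7e-06). C5 scored 31.2 and 23.7 in MON and 15.2 and 11.3 in NEU and was likewise at 0 in GMP, while C12 (9.05 and 8.30 and 8.26 and 8.30) did not pass without GMP 2. C22, upstream of Hfe, scored 13.7 and 12.9 in MON and was listed at 0 in NEU, against 41.4 and 31.5 in GMP (adjusted p = 0.0001). A10 and A12, both in repeated sequence, fell as well, A12 not without GMP 1. In G1E-ER4+E2 against G1E 3 rose (4.34%) and 9 fell (4.08%). A4, A6 and C27 were listed at 0 in both G1E-ER4+E2 libraries against 37.7 and 32.3, 38.5 and 24.3 and 26.7 and 29.8 in G1E (adjusted p = 0.00015, 6.8e-12 and 0.00034). The rises, C1, A11 and C12, scored 9.50 and 9.07, 6.61 and 8.71 and 5.78 and 5.81 in G1E-ER4+E2 and were listed at 0 in G1E. Each of them was lost when any 1 of the 4 libraries was left out.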

How the data were processed

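ATAC-seq libraries of 12 mouse blood cell types, 2 each, were deposited as 24 peak lists. The authors trimmed reads to 30 bases, aligned them to mm10 with Bowtie (version 0.12.8 per the submitters' processing notes), removed mitochondrial and unplaced reads, converted formats with SAMtools and bedtools, and called peaks per library with HOMER. The fourth column of each deposited list is a score of unstated unit; no read counts come with it, so depth and counting error are unknown. The fifth column was not used. All 24 lists lack a header and hold peaks of at most 150 bp.

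Promoters were scored as the sum of scores of peaks within 500 bp of any GENCODE vM21 transcript start. Each library was centred on the promoters called in all 24, and log2(scaled score + 1.01), 1.01 being the lowest score of any list, was fitted with limma 3.58.1 (R 4.3.3) with 12 group means on all 24 libraries, with trend and robust variance and Benjamini-Hochberg adjusted p under 0.05, over genes called in at least 2 libraries. All else was computed in Python 3.11.15 (pandas 2.3.3, numpy 2.4.6), with figures drawn in matplotlib 3.10.9. The procedure was tested on simulated data. Stretches join Hist1h genes under 100 kb apart with 5 kb on either side. Alternatives were scores as deposited, quantile normalization, a pseudocount 4 times as large, a fit to the compared libraries alone, other filters and windows, equal peak numbers, a stricter overlap, a block by run of library numbers, and each library left out in turn.

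Named in each comparison were the 3 largest rises and 3 largest falls past the threshold with libraries that do not overlap. Hist1h1a to Hist1h1e, Hist1h1t, Hist1h2aa, Hist1h2ba and members not called in both libraries of at least 1 primary type were always named, as were elements called in all 24 libraries. Of the other gene lists, the largest rise and fall past the threshold could be named. Further members and elements were named after their values were seen. A few marker genes are not reported here and were left out of their lists. The members and lists were chosen with earlier results of these data known.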

Additional observations from a re-analysis of the deposited data

How the results depend on the processing

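The lists give no counts, so depth limits what a missing peak shows, and the 2 libraries of a type bound the error of every value. Of 319 counts under the alternatives 271 stayed within 1.5 times the value given and 48 did not. Of 848 values of the 66 named differences 709 kept their direction and their side of the threshold, 136 kept their direction but no longer passed, and 3 reversed. Scores as deposited reversed Hist1h4h (0.015) and Hist1h2bg (0.083) in CFUE and ERY against MEP and Hist1h3f (-0.21) in MON and NEU against GMP. That setting moved the median of all genes to 0.59 in CMP against LSK, 0.17 in GMP against CMP, 0.82 in CFUMK against MEP, 0.11 in CFUE and ERY against MEP, -1.12 in MON and NEU against GMP and 0.24 in G1E-ER4+E2 against G1E. The cause of the changes below was not tested.

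Members that passed in CMP against LSK numbered 1 with scores as deposited, 2 with quantile normalization, 1 with the larger pseudocount and 1 with a window of 1000 bp. In GMP against CMP the count was 0 as deposited, 3 with quantile normalization, 2 with the larger pseudocount, 0 in the fit to the compared libraries alone, 2 with equal peak numbers and 3 with 1000 bp. In MEP against CMP it was 1 in the fit alone and 3 with 1000 bp. In CFUMK against MEP it was 2 as deposited, 1 in the fit alone, 1 with 250 bp and 1 with 1000 bp. In iMK against CFUMK it was 3 as deposited. In CFUE and ERY against MEP it was 21 as deposited, 12 in the fit alone (4 rises, 8 falls) and 11 with 1000 bp (8 rises, 3 falls). In MON and NEU against GMP it was 32 as deposited and 8 in the fit alone (2 rises, 6 falls). In G1E-ER4+E2 against G1E it was 0 as deposited, 5 with quantile normalization, 0 in the fit alone and 10 with no filter. Elements that passed in CMP against LSK numbered 0 in the fit alone and 3 with equal peak numbers. The median number of peaks between the genes per list was 41, or 22.5 with 1000 bp around each start left out.

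Leaving out each library in turn gave 0 to 7 members in CMP against LSK, 0 to 1 in GMP against CMP, 0 to 1 in MEP against CMP, 0 to 0 in CFUMK against MEP, 5 to 10 in iMK against CFUMK, 3 to 7 in CFUE and ERY against MEP, 2 to 14 in MON and NEU against GMP and 9 to 15 in G1E-ER4+E2 against G1E. For elements the ranges in the same order were 6 to 9, 5 to 7, 10 to 12, 10 to 12, 4 to 7, 13 to 16, 11 to 15 and 8 to 11. Where 1 library of a group remained, its spread was taken from the other groups.

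The library numbers of iMK, CFUMK, ERY, CFUE, MEP, GMP and CMP form 2 parallel runs with 1 library of each type, and the labels do not say what a run is. Over promoters the differences between the runs correlated by -0.053 to 0.055 in the 21 pairs of types, with none over 0.1. These values cannot say whether the libraries of a run were prepared together or share an effect on some genes, which was not tested. In a fit to these 14 libraries alone, chosen after seeing the data, 5 members passed in GMP against CMP and 20 in iMK against CFUMK. With the number run added as a replicate block 5 passed in GMP against CMP, 1 in MEP against CMP and 21 in iMK against CFUMK. The other counts of both fits stayed within 1.5 times. No paired analysis was possible because LSK, MON, NEU, G1E and G1E-ER4+E2 have library numbers outside these runs, for the comparisons that use them.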

Other observations

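The elements in and beside Hfe, a gene of iron metabolism that lies among the Hist1h genes of the third stretch, followed an order of cell types unlike that of the histone promoters. C20, over the Hfe start, scored 16 and 29.5 in LSK, 19.5 and 19.2 in MON and 15.1 and 17.1 in iMK. It was listed at 0 in CFUE, ERY, G1E-ER4+E2 and G1E, where most Hist1h promoters carried peaks. C22, upstream of Hfe, was highest in GMP at 41.4 and 31.5, and C17, C24 and C25 were found in MON alone, C17 at 14.9 and 13.8. No test was made of this order. In the duplicated block the paired elements A12 and A13, both made up of repeated 30-mers, were each listed at 0 in NEU 2, CFUMK 2 and both G1E-ER4+E2 libraries.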
